A study of Mus musculus with 14 samples.

Results

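The colony-stimulating factors and their receptors were examined in CD11b+ microglia/macrophages of the injured mouse brain. The 7 genes, taken by symbol, were the receptor *Csf1r* with its ligands *Csf1* and *Il34*, the receptor chains *Csf2ra*, *Csf2rb* and *Csf2rb2*, and the receptor *Csf3r*. All 7 had a row among the 33939 genes measured. Cells were collected 3 days after a controlled cortical impact, a model of traumatic brain injury (TBI), with CD11b magnetic beads (MACS) from the non-lesion (CL) and the lesion (IL) hemisphere, and their RNA was sequenced in bulk. Ctrl mice were Cx3cr1-CreER+/- and cKO mice were Cx3cr1-CreER+/-;Nhe1flox/flox, so that both genotypes carried a single copy of the Cre, both had received tamoxifen, and both were C57BL/6 mice aged 8 to 12 weeks. The Cx3cr1 promoter is active in microglia and also in other CX3CR1+ myeloid cells, and the CD11b beads retain monocytes and neutrophils besides microglia. The study left a wait between tamoxifen and injury so that peripheral Cx3cr1+ monocytes could be replenished. Each hemisphere gave 4 Ctrl and 3 cKO libraries, 14 in all from 8 mice as the labels number them, of which 6 gave both hemispheres. In cKO, mouse 788 gave CL alone and mouse 784 IL alone. Whether these are different mice rests on the labels, and the study states an N of 3 for cKO.

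Colony-stimulating factors are secreted proteins that keep myeloid cells alive and set how they divide and mature. CSF1R is the receptor tyrosine kinase on which microglia depend for survival, and CSF1 and IL-34 are its alternative ligands. GM-CSF, the product of *Csf2*, binds an alpha chain encoded by *Csf2ra*, which signals through a beta chain encoded by *Csf2rb*. The mouse carries a second beta chain gene, *Csf2rb2*, whose product serves the interleukin-3 receptor together with the alpha chain encoded by *Il3ra*. G-CSF, the product of *Csf3*, binds CSF3R, which is best known from neutrophils and their precursors.

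Across the IL hemispheres, the 3 receptor chain genes of the GM-CSF and interleukin-3 family were 1.72- to 2.60-fold higher than in the CL hemispheres of the same genotype, and *Csf1* was 2.26-fold higher in Ctrl. In cKO *Csf1* was called higher only in the fits that take the mouse into account, where few mice gave both hemispheres. *Csf1r* and *Csf3r* did not pass the test in either genotype, with or without the mouse in the fit. No member passed the test between cKO and Ctrl. *Csf1* was higher in every cKO IL library than in every Ctrl IL library, where 10.3% of all genes tested did not overlap.

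Values were CPM, reads scaled so that each library sums to 1000000. Depth was inferred by taking the most frequent value above 0 in each library as that of a read. It was between 12.2 and 41.6 M reads (M, 1000000 reads), lowest in IL of Ctrl mouse 3546. Next was CL of Ctrl mouse 3551 (16.1 M). *Itgam*, which encodes CD11b, was between 650 and 1714 CPM over the 14 libraries. The 8 neuron markers summed to 3.21 to 6.32 CPM. The 12 neutrophil markers summed to 606 to 8303 CPM (CL) and 200 to 1174 CPM (IL) in Ctrl and to 659 to 1809 CPM (CL) and 283 to 459 CPM (IL) in cKO, and none was at 0 in all libraries of a group. The 14 microglia genes, among them *P2ry12* and *Tmem119*, summed to 42655 to 52015 CPM (CL) and 23872 to 25869 CPM (IL) in Ctrl. In cKO they summed to 40020 to 45501 CPM in CL and 23252 to 26433 CPM in IL, and 8 of the 14 were called lower in IL in each genotype, where 2.96% of all genes were in Ctrl and 9.52% in cKO. In bulk RNA, fewer cells of a type and less RNA per cell cannot be told apart.

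*Csf1r* (ENSMUSG00000024621, mm10, chromosome 18, 61100598 to 61132149, plus strand) was among the most abundant transcripts of these cells, ranking between 4 and 18 of all genes in the 14 libraries and taking 0.447% to 1.08% of the reads. In Ctrl CL it was at 8262, 6267, 10800 and 9835 CPM, and in Ctrl IL at 4470, 5002, 8451 and 6716 CPM. In cKO CL it was at 10386, 9750 and 9434 CPM, and in cKO IL at 6728, 6708 and 6095 CPM. The groups overlapped in Ctrl, where mice 3541 and 3545 were below 3546 and 3551 in both hemispheres, and did not overlap in cKO. IL against CL, the log2 fold change was -0.46 in Ctrl (SE 0.23, 95% interval -0.96 to 0.05, limma adjusted p = 0.289) and -0.51 in cKO (SE 0.28, 95% interval -1.15 to 0.12, limma adjusted p = 0.219). Within mice, the IL library was lower than the CL library in 6 of 6 mice, by -0.81 to -0.23 on the log2 scale. With the mouse as a block, the 95% interval was -0.81 to -0.10 in Ctrl (limma adjusted p = 0.0754). In cKO it was -1.34 to 0.38 (limma adjusted p = 0.423). With the mouse as a random effect over all 14 libraries, it was -0.76 to -0.11 in Ctrl (limma adjusted p = 0.0534). In cKO that fit gave -0.89 to -0.07 (limma adjusted p = 0.103). *Csf1r* was not called in any of these fits. The exons of *Csf1r* share 873 bases with those of *Hmgxb3* on the opposite strand, and reads of the 2 genes cannot be told apart there unless the counting used strand.

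*Csf1* (ENSMUSG00000014599, chromosome 3, 107741048 to 107760469, minus strand) varied widely between cKO mice. In Ctrl CL it was at 131, 78.7, 112 and 149 CPM, and in Ctrl IL at 214, 223, 275 and 285 CPM. The lowest Ctrl IL library thus lay above the highest Ctrl CL library. In cKO CL it was at 339 CPM in mouse 788, 454 CPM in mouse 791 and 102 CPM in mouse 3592, and in cKO IL at 498 CPM in mouse 784, 527 CPM in mouse 791 and 328 CPM in mouse 3592. Mouse 3592 was the lowest cKO mouse in both hemispheres, and its CL value lay within the Ctrl CL range. The other ligand of CSF1R, *Il34* (ENSMUSG00000031750, chromosome 8, 110741829 to 110805924, minus strand), a cytokine made mainly by neurons in the brain, was near the limit of detection, at 0.498 to 1.44 CPM (CL) and 0.341 to 0.768 CPM (IL) in Ctrl and at 0.304 to 0.813 CPM (CL) and 0.263 to 0.50 CPM (IL) in cKO. Its groups overlapped in every comparison, and its exons share 22 and 75 bases with *Gm15894* and *Gm15895* on the opposite strand.

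*Csf2ra* (ENSMUSG00000059326, chromosome 19, 61223957 to 61228429, minus strand) was at 113, 58.5, 110 and 94.0 CPM in Ctrl CL and at 230, 203, 205 and 270 CPM in Ctrl IL. In cKO it was at 109, 168 and 145 CPM in CL and at 307, 259 and 303 CPM in IL. Every IL library lay above every CL library, whatever the genotype. *Csf2rb* (ENSMUSG00000071713, chromosome 15, 78325752 to 78353847, plus strand) was at 65.0, 47.2, 90.2 and 110 CPM in Ctrl CL and at 110, 113, 195 and 142 CPM in Ctrl IL, where the highest CL value (109.8 CPM, mouse 3551) and the lowest IL value (110.3 CPM, mouse 3541) nearly met. In cKO it was at 73.5, 100 and 92.1 CPM in CL and at 146, 159 and 153 CPM in IL, without overlap. *Csf2rb2* (ENSMUSG00000071714, chromosome 15, 78282507 to 78305721, minus strand) was lower in level throughout, at 23.4, 20.0, 34.8 and 26.3 CPM in CL and 48.1, 51.4, 74.7 and 46.1 CPM in IL of Ctrl mice. In cKO mice it was at 28.8, 39.3 and 29.9 CPM in CL and 54.5, 50.9 and 54.1 CPM in IL. Its IL libraries also all lay above its CL libraries.

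*Csf3r* (ENSMUSG00000028859, chromosome 4, 126024550 to 126044440, plus strand) was the second most abundant member. It was at 562, 489, 883 and 827 CPM in Ctrl CL and at 415, 399, 687 and 712 CPM in Ctrl IL. In cKO it was at 712, 814 and 685 CPM in CL and at 659, 713 and 537 CPM in IL. The 4 groups overlapped, and in Ctrl the mice kept their order of high and low more than the hemispheres did, with 3546 and 3551 above 3541 and 3545 on both sides.

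**Figure D1:**
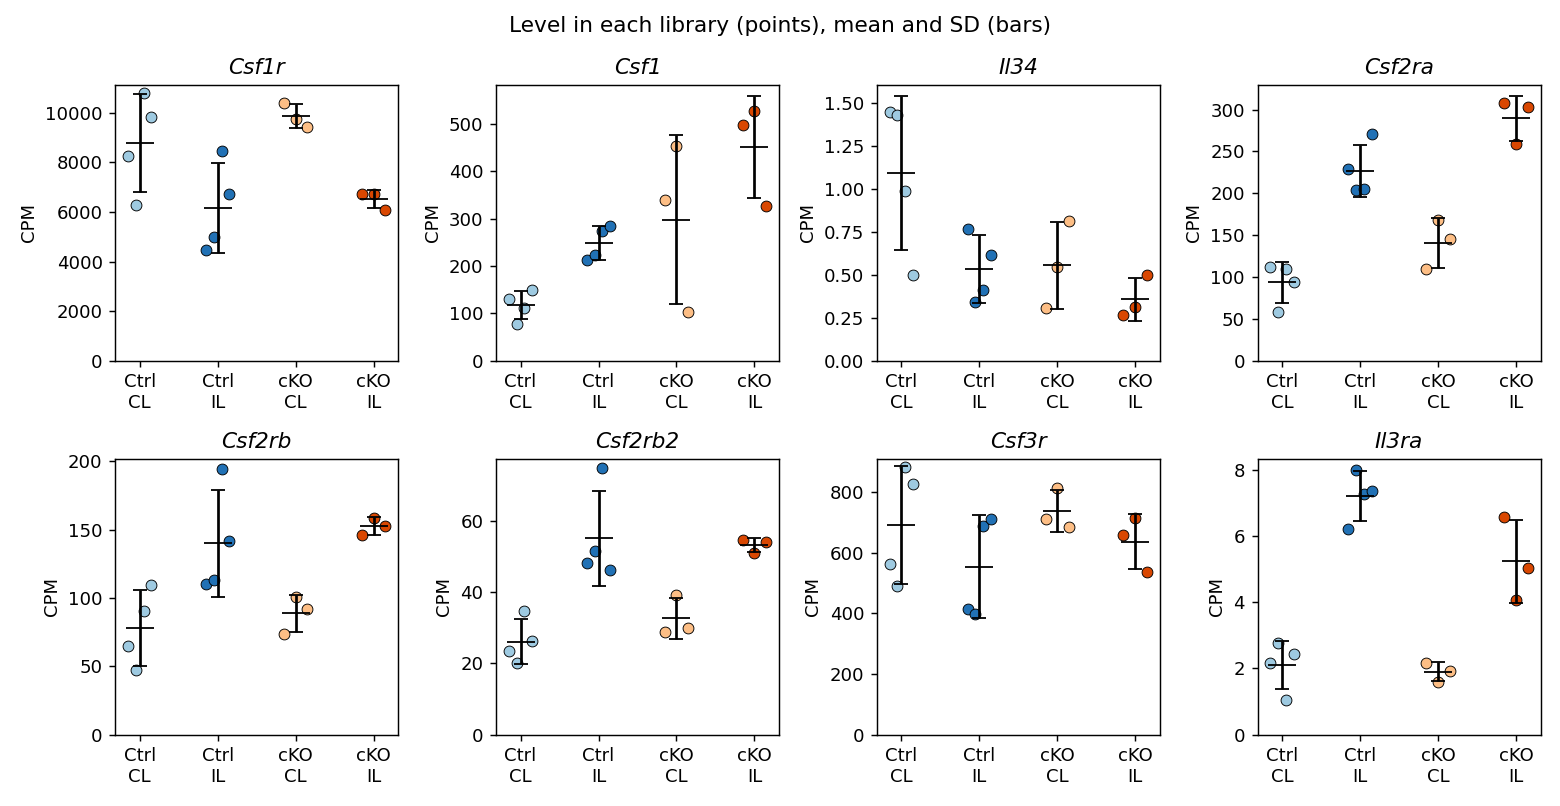
CPM of the 7 members and of *Il3ra* (y axes, linear from 0) in each library of the 4 groups (x axes), with the points for mice and the bars for mean and SD. *Csf2ra*, *Csf2rb*, *Csf2rb2* and *Il3ra* were higher in every IL library than in every CL library. For *Csf2rb* the values nearly met (110.3 CPM in IL against 109.8 CPM in CL). *Csf1* in cKO was spread from 102 to 527 CPM.

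Divided by the exon length of each gene (GENCODE M21, a union over transcripts), the mean level of *Csf1r* was between 1067 and 1707 CPM per kb over the 4 groups and that of *Csf3r* between 153 and 204 CPM per kb. *Csf2ra* followed at 32.6 ± 8.65 CPM per kb (SD, n = 4) in Ctrl CL and 101 ± 9.34 CPM per kb (SD, n = 3) in cKO IL. *Csf1* was at 22.3 ± 5.66 CPM per kb (SD, n = 4) in Ctrl CL and 85.4 ± 20.4 CPM per kb (SD, n = 3) in cKO IL, and these 2 neighbours in the order differed by less than the sum of their SDs in both groups and in cKO CL, but not in Ctrl IL (79.1 ± 10.9 against 47.1 ± 6.83 CPM per kb, SD, n = 4). In cKO CL the order turned, with *Csf1* at 56.5 and *Csf2ra* at 49.1 CPM per kb. *Csf2rb* was between 10.7 and 20.9 CPM per kb, *Csf2rb2* between 5.51 and 11.6 CPM per kb, and *Il34* between 0.183 and 0.556 CPM per kb. *Csf2rb* and *Csf2rb2* differed by less than the sum of their SDs in Ctrl IL (19.2 ± 5.37 against 11.6 ± 2.80 CPM per kb, SD, n = 4), and by more in the other 3 groups. The receptor of CSF1 was thus by far the most abundant member per length, and its ligand *Il34* the least.

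IL was first compared with CL in Ctrl, which asks what the lesion side holds at this time. Of the 7 members, 4 were called higher and 0 lower, where 6.58% of the 16376 genes tested were called (3.63% higher and 2.96% lower). A gene was called at a limma adjusted p, over all genes, of at most 0.05 and a fold of at least 1.2, and all 7 members passed the filter on low values. The same 4 were the members whose groups did not overlap, where 17.7% of all genes did not. *Csf2ra*, the GM-CSF binding chain, was 1.38 higher on the log2 scale (SE 0.21, limma adjusted p = 0.00479), and *Csf1*, the CSF1R ligand, was 1.17 higher (SE 0.17, limma adjusted p = 0.00376). The beta chain gene *Csf2rb2* was 1.12 higher (SE 0.18, limma adjusted p = 0.00676), and its copy *Csf2rb* 0.94 higher (SE 0.21, limma adjusted p = 0.0255). The median log2 fold change of the 7 members was 0.94, and that of all genes tested was -0.04. *Csf2rb* was no longer called without the CL library of mouse 3541 or the IL library of mouse 3541, 3545 or 3551 (limma adjusted p = 0.0565 to 0.0639), on the CPM without further scaling (limma adjusted p = 0.0862) or without the filter (limma adjusted p = 0.0681). Mice 3541 and 3546 had the largest neutrophil marker sums in CL (8303 and 4053 CPM), and without both hemispheres of these mice, an alternative chosen after seeing the data, *Csf2ra* alone was called (log2 fold change 1.72, limma adjusted p = 0.0105), while *Csf1* was at 1.29 (limma adjusted p = 0.0557), *Csf2rb2* at 1.13 (limma adjusted p = 0.0743) and *Csf2rb* at 0.88 (limma adjusted p = 0.232). Of the 9 monocyte markers, 4 were called higher in IL in Ctrl, with *F10* at 3.26 and *Ccr2* at 1.10 on the log2 scale, and 0 lower, but 4 of the 9 had a log2 fold change below 0 and the list's median was 0.02. Their sum was 113 to 784 CPM (median 333) in CL and 190 to 414 CPM (median 285) in IL of Ctrl mice, and the part of monocytes in the members' change was not tested. All 12 neutrophil markers had log2 fold changes below 0 (median -2.53, 0 called), 3 of the 5 lymphocyte markers tested were called lower (median -0.93), and 1 of the 6 border macrophage markers was (median -0.90, 4 with an unadjusted p under 0.05). Of the 7 dendritic cell markers 1 was called higher (median -0.08, 4 with an unadjusted p under 0.05). Of the 7 astrocyte markers 1 was called higher and 1 lower (median -0.33). The 7 endothelial markers had a median of -0.53, with 0 called and 3 with an unadjusted p under 0.05. The part of these cell types was not tested either.

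In cKO, 3 of the 7 members were called higher in IL than in CL and 0 lower, where 22.4% of the 16758 genes tested were called (12.8% higher and 9.52% lower). The log2 fold change was 1.14 for *Csf2ra* (SE 0.14, limma adjusted p = 0.00255), 0.87 for *Csf2rb* (SE 0.12, limma adjusted p = 0.00337) and 0.78 for *Csf2rb2* (SE 0.13, limma adjusted p = 0.00523). The 3 genes of the GM-CSF and interleukin-3 receptors were thus called on the lesion side of both genotypes. These 3 and *Csf1r*, which was lower in IL, did not overlap between the groups, where 42.4% of all genes did not. *Csf1* was 0.90 higher on the log2 scale (SE 0.51, 95% interval -0.26 to 2.06, limma adjusted p = 0.239) and was not called. With the mouse as a block it was at 1.05 and was called (limma adjusted p = 0.0348), as it was with the mouse as a random effect over all 14 libraries (0.97, limma adjusted p = 0.0457). Only mice 791 and 3592 gave both hemispheres in cKO, and their *Csf1* differences were 0.41 and 1.71. The block estimate rests on these pairs alone, since mice 788 and 784 add nothing to it. Were 788 and 784 the same mouse, there would be 3 such pairs, a case that was not fitted. Without the CL library of mouse 3592 the log2 fold change of *Csf1* was 0.25 (limma adjusted p = 0.515). *Csf3r* had a log2 fold change of -0.13 in cKO (95% interval -0.51 to 0.25, limma adjusted p = 0.608) and -0.25 in Ctrl (95% interval -0.67 to 0.17, limma adjusted p = 0.511). *Il34* had one of -0.16 in cKO (limma adjusted p = 0.494) and -0.41 in Ctrl (limma adjusted p = 0.318). Here 5 of the 9 monocyte markers were called higher in IL (12.8% of all genes), with *F10* at 3.24 and a list median of 0.92. Their sum was 116 to 246 CPM in CL and 237 to 328 CPM in IL of cKO mice. In the same comparison 8 of the 12 neutrophil markers were called lower (9.52% of all genes). Of the 8 oligodendrocyte markers 3 were called higher (median 0.42) and of the 7 endothelial markers 2 were (median 0.12), while 3 of the 10 genes known to respond to tissue dissociation were called lower (median -0.51). The part of these cell types and of the dissociation response was not tested.

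**Figure D2:**
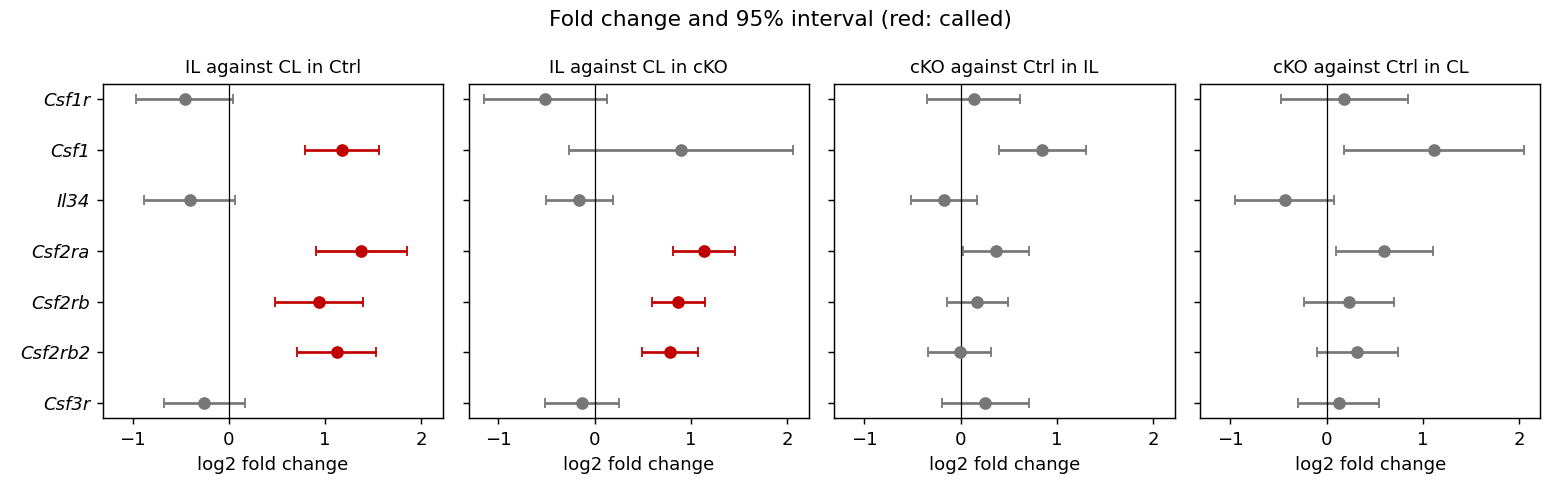
Log2 fold change on the log2(CPM + 1) scale (x axes) of each member (y axis) in 4 comparisons, with its 95% interval from limma; red points were called. The GM-CSF and interleukin-3 receptor genes were called in both IL against CL comparisons, and no point was called between genotypes.

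Within mice, *Csf1*, *Csf2ra*, *Csf2rb* and *Csf2rb2* were higher in IL in 6 of 6 mice. The differences ran from 0.41 to 1.71 for *Csf1*, from 0.82 to 1.87 for *Csf2ra*, from 0.55 to 1.34 for *Csf2rb* and from 0.56 to 1.41 for *Csf2rb2*, on the log2 scale. *Csf3r* was higher in IL in 1 of 6 mice, with differences from -0.36 to 0.01, and *Il34* also in 1 of 6.

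**Figure D3:**
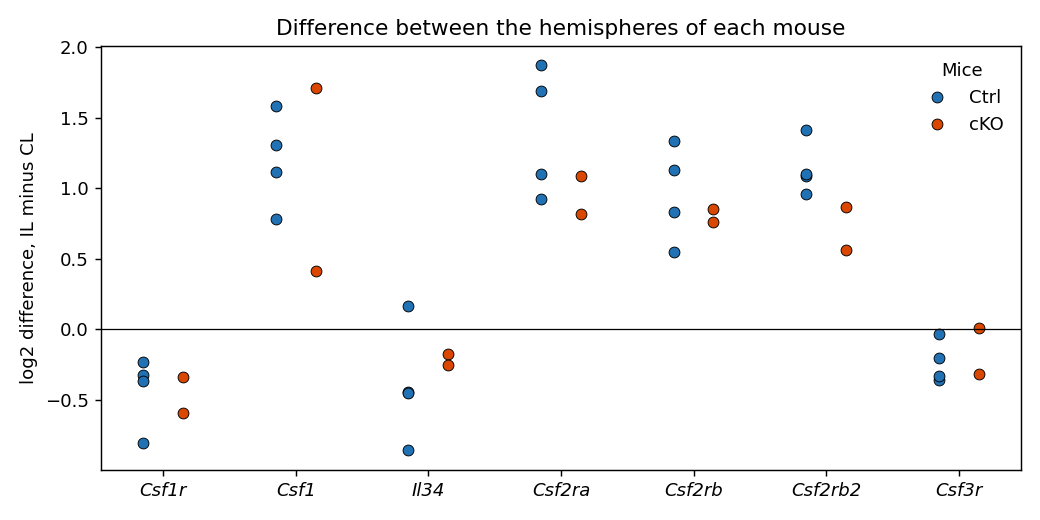
Log2 difference between the IL and CL libraries of the same mouse (y axis) for the 7 members (x axis), with 4 Ctrl and 2 cKO mice. All 6 points of *Csf1*, *Csf2ra*, *Csf2rb* and *Csf2rb2* lie above 0 and all 6 of *Csf1r* lie below it.

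The partners of these members were scarce. *Il3ra*, the interleukin-3 binding chain, was at 2.10 ± 0.737 CPM in Ctrl CL and 7.21 ± 0.744 CPM in Ctrl IL (SD, n = 4), and at 1.90 ± 0.281 CPM in cKO CL and 5.23 ± 1.27 CPM in cKO IL (SD, n = 3). It was called higher in IL in Ctrl (log2 fold change 1.49, SE 0.24, limma adjusted p = 0.00649) and in cKO (1.15, SE 0.20, limma adjusted p = 0.00665), and was higher in IL in 6 of 6 mice. *Csf3*, which encodes G-CSF, was at 0 to 0.313 CPM (CL) and 0.0818 to 1.08 CPM (IL) in Ctrl, and at 0 to 0.249 CPM (CL) and 1.03 to 1.65 CPM (IL) in cKO. It was called higher in IL in cKO (1.04, SE 0.17, limma adjusted p = 0.00602) and not in Ctrl (0.46, SE 0.21, limma adjusted p = 0.241), and the same held with the mouse as a block (limma adjusted p = 0.0126 in cKO and 0.123 in Ctrl). With the mouse as a random effect over all 14 libraries it was called in both (0.47 in Ctrl, limma adjusted p = 0.0423, and 1.10 in cKO, limma adjusted p = 0.00171). In cKO all 3 CL values lay under the 0.312 CPM asked by the filter on low values and all 3 IL values above it. *Csf3* thus entered the cKO test only through the group where it was high, and its call there is no support for a difference. The fit over all 14 libraries asked for 0.293 CPM in 3 of them, and among CL values only that of 0.313 CPM reached this. *Csf3* passed there through IL too, so those calls are no support either. The difference between the changes in Ctrl and cKO did not pass the test of the interaction (0.58, SE 0.29, limma adjusted p = 0.9999). *Csf2*, which encodes GM-CSF, reached at most 0.182 CPM and was listed at 0 in 4 of the 14 libraries. *Il5*, whose receptor also uses the common beta chain, reached at most 0.0728 CPM and was listed at 0 in 8 libraries, and its binding chain *Il5ra* was at 0.465 CPM or less. *Il3* was not analysed here.

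Between genotypes in IL, 0 of the 7 members were called by limma, where 0.658% of the 16873 genes tested were called, and 2 members had an unadjusted p under 0.05, where 8.9% of all genes did. *Csf1* averaged 451 ± 108 CPM in the cKO group (SD, n = 3) and 249 ± 36.1 CPM in the Ctrl group (SD, n = 4), so that cKO was 0.85 higher on the log2 scale (SE 0.20, 95% interval 0.40 to 1.30, limma adjusted p = 0.144). The 2 groups did not overlap, as for 10.3% of all genes tested. With cKO mouse 3592, the lowest, left out of IL the log2 fold change was 1.11 and *Csf1* was called (limma adjusted p = 0.0122), while it was 0.75 without mouse 784 (limma adjusted p = 0.572) and 0.69 without mouse 791 (limma adjusted p = 0.553). *Csf2ra* averaged 290 ± 26.8 CPM in the cKO group and 227 ± 31.2 CPM in the Ctrl group, with overlap between the groups and a difference of 0.37 on the log2 scale (SE 0.15, limma adjusted p = 0.497). The other 5 members had log2 fold changes from -0.17 to 0.26 and limma adjusted p values of at least 0.828. For *Csf1r* the 95% interval was -0.34 to 0.62. In the same comparison all 6 border macrophage markers (median -0.19) and 9 of 12 neutrophil markers (median -0.18) had log2 fold changes below 0. Of 7 dendritic cell markers 6 were above 0 (median 0.35). Of the 14 microglia genes 1 was called, lower, and 3 of 10 dissociation response genes had an unadjusted p under 0.05 (median 0.11). The part of these lists in the members' differences was not tested.

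In CL, again 0 of the 7 members were called by limma, where 0.875% of the 16570 genes tested were called, and 2 had an unadjusted p under 0.05, where 9.81% of all genes did. All 7 overlapped between the groups, while 10% of all genes did not. *Csf1* was at 298 ± 179 CPM in cKO CL (SD, n = 3) and 118 ± 29.9 CPM in Ctrl CL (SD, n = 4), so that cKO was 1.12 higher on the log2 scale (SE 0.43, 95% interval 0.18 to 2.05, limma adjusted p = 0.389). The lowest cKO value was that of mouse 3592, and without its CL library the log2 fold change was 1.79 and *Csf1* was called (limma adjusted p = 0.00604), while it was 0.87 without mouse 788 (limma adjusted p = 0.874) and 0.70 without mouse 791 (limma adjusted p = 0.930). *Csf2ra* was at 141 ± 29.8 CPM in cKO CL and 93.7 ± 24.8 CPM in Ctrl CL, a difference of 0.60 on the log2 scale (SE 0.23, limma adjusted p = 0.390). In the same comparison all 12 neutrophil markers (median -1.23) and all 6 border macrophage markers (median -0.97) had log2 fold changes below 0, as had 6 of 7 endothelial markers (median -0.80) and 7 of 8 oligodendrocyte markers (median -0.64), of which 1 was called, *Mobp*. Also below 0 were 8 of 9 monocyte markers (median -0.59) and all 6 lymphocyte markers tested (median -0.39, 3 with an unadjusted p under 0.05), while 8 of the 10 dissociation response genes were above 0 (median 0.30, 3 with an unadjusted p under 0.05). Their part in the members' differences was not tested. The genotype by hemisphere interaction, which asks whether the lesion changes differed between genotypes, called 0 of the 7 members and 0% of the 18476 genes tested, with an unadjusted p under 0.05 for 0 members and 2.6% of all genes. Its intervals were wide, from -1.43 to 0.89 on the log2 scale for *Csf1*, from -0.86 to 0.39 for *Csf2ra* and from -0.72 to 0.61 for *Csf1r*.

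*Csf2rb* and *Csf2rb2* lie side by side on chromosome 15, on opposite strands, and their coding sequences are near copies, 95.2% identical over 2631 aligned bases of 2691 and 2637. The stretches of 90 coding bases with most differences (16, in capitals) lie at chr15:78338897-78338986 on the plus strand for *Csf2rb* and at chr15:78294345-78294434 on the minus strand for *Csf2rb2* (mm10, each within 1 coding exon). They show where a read can be told apart between the genes.
Csf2rb: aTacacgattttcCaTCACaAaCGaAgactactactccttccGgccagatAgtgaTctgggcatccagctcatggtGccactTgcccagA
Csf2rb2: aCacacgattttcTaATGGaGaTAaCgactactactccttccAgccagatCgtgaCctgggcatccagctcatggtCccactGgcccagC
In contrast, 60 bases from within the longest identical run of 242 bases, at chr15:78348668-78348727 for *Csf2rb* and at chr15:78284721-78284780 for *Csf2rb2*, are the same in both.
Csf2rb and Csf2rb2: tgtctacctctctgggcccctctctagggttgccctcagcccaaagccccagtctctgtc
Of the windows of 50 coding bases, 26.0% of those of *Csf2rb* and 26.5% of those of *Csf2rb2* occur unchanged in the other gene. How reads that match both were counted was not stated, so the level of either gene is uncertain, and the sum and the share were also examined. *Csf2rb* made up 74.2% ± 4.55 of the sum in Ctrl CL and 71.5% ± 3.01 in Ctrl IL (SD, n = 4), and 73.1% ± 2.09 in cKO CL and 74.1% ± 1.5 in cKO IL (SD, n = 3). The 4 comparisons of the share gave two-sided exact permutation p values from 0.229 to 0.800 (0.667 to 0.800 after Benjamini-Hochberg adjustment over the 4). These tests, and those of the sum, shuffled libraries without regard to the mouse. The sum was 104 ± 32.0 CPM in Ctrl CL and 195 ± 51.1 CPM in Ctrl IL (SD, n = 4, higher in each of 4 IL libraries than in any CL library), with an exact permutation p of 0.0286, the smallest that 4 against 4 libraries can give, and 0.114 after adjustment. It was 121 ± 18.7 CPM in cKO CL and 206 ± 4.77 CPM in cKO IL (SD, n = 3), also without overlap, where the exact permutation p of 0.1 is the smallest that 3 against 3 can give (0.200 after adjustment). Between genotypes the sum gave an exact permutation p of 0.800 in IL and 0.457 in CL.

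RefSeq's promoter sequences (GRCm38.p6) held 4 of the 7 members, and the 250 bases before the start site are shown for the 3 of them that were called higher in IL. They were searched on both strands for an NF-kB motif, the AP-1 motif TGANTCA, the PU.1 core GAGGAA and the STAT motif TTCNNNGAA, and matches, none of which overlap, are in capitals. *Csf1* lies at chr3:107760470-107760719, *Csf2ra* at chr19:61228419-61228668 and *Csf2rb2* at chr15:78305722-78305971, all read on the minus strand. The window of *Csf2ra* ends at RefSeq's start site, and its last bases lie within the gene as GENCODE gives it, which ends at position 61228429.
Csf1: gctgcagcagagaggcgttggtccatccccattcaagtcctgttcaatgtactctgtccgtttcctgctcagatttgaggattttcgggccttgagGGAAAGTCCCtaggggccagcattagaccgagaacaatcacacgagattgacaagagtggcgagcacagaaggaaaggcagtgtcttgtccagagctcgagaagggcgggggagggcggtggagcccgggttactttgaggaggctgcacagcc
Csf2ra: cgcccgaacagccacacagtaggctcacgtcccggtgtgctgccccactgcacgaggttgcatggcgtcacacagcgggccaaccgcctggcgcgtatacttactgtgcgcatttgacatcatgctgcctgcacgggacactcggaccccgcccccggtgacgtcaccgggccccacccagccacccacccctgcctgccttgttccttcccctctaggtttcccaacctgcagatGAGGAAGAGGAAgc
Csf2rb2: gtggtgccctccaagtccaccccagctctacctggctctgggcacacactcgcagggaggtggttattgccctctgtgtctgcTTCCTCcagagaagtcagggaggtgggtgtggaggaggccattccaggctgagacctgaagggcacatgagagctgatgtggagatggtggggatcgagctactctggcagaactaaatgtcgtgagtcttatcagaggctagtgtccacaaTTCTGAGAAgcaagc
The *Csf1* window held 1 NF-kB match, starting at position -154 from the start site, as did 7.25% of the 32851 promoters. That of *Csf2ra* held 2 adjacent GAGGAA matches, at -14 and -8, the latter wholly and the former partly inside the GENCODE gene, and that of *Csf2rb2* held 1 at -167, where 23.3% of all promoters held at least 1. The *Csf2rb2* window also held 1 TTCNNNGAA match at -15 (7.02% of all promoters), and TGANTCA (6.75%) was in none of the 3. *Csf3r*, which was not called in any comparison, held 1 NF-kB match at -129 and 1 GAGGAA match at -86 in its own window. That window, chr4:126024409-126024658, runs past the GENCODE start of *Csf3r* at 126024550, and its GAGGAA match lies inside the gene. All of these are matches of letters and no measure of binding.

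Genes downstream of the receptors were counted beside the shares of all genes called, 6.58% in Ctrl and 22.4% in cKO. Of 24 genes of CSF1R signalling, all tested, 1 was called higher in IL in Ctrl, the Src family kinase gene *Fyn* (log2 fold change 0.75, SE 0.13, limma adjusted p = 0.00929), and the list's median was 0.10. In cKO, 2 were called higher, *Fyn* (0.56, limma adjusted p = 0.0106) and the adaptor gene *Grb2* (0.54, limma adjusted p = 0.0404), and 2 lower, the PI3-kinase subunit genes *Pik3r1* (-0.72, limma adjusted p = 0.0232) and *Pik3cg* (-0.57, limma adjusted p = 0.0118). Of 14 genes of the JAK-STAT branch used by the GM-CSF, interleukin-3 and G-CSF receptors, 1 was called higher in Ctrl and 2 in cKO, and 0 lower. The list's median was 0.24 in Ctrl and 0.27 in cKO, against -0.04 and 0.02 over all genes tested. *Pim1*, a kinase gene induced by STAT5, was at 13.4 ± 3.35 CPM in Ctrl CL and 29.1 ± 6.42 CPM in Ctrl IL (SD, n = 4), and rose by 1.14 on the log2 scale (SE 0.20, limma adjusted p = 0.00941), and again rose by 1.14 in cKO (SE 0.12, limma adjusted p = 0.00183). *Stat3* rose by 0.43 in cKO (SE 0.09, limma adjusted p = 0.0148). Of 8 transcription factor genes known to regulate *Csf1r*, among them *Spi1* and *Runx1*, 0 were called in Ctrl, where 1 had an unadjusted p under 0.05, and in cKO *Cebpb* alone was called (0.94, SE 0.17, limma adjusted p = 0.00847). Between genotypes none of these 46 genes was called by limma in either hemisphere. In IL 3 of them and in CL 5, all of the CSF1R signalling list, had an unadjusted p under 0.05, where 8.9% and 9.81% of all genes did.

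*Csf3r* was set beside the neutrophil markers in each library. Within mice, the marker sum and the CPM of *Csf3r* were both lower in IL than in CL in 6 of 6 mice, from 8303 to 1174 CPM with *Csf3r* from 562 to 415 CPM in mouse 3541, and from 1809 to 392 CPM with *Csf3r* from 685 to 537 CPM in mouse 3592. Rescaled and on the log2 scale, *Csf3r* was lower in 5 of the 6. Between mice the order differed, since the CL library of Ctrl mouse 3551 had a marker sum of 606 CPM with *Csf3r* at 827 CPM, and its IL library the smallest sum, 200 CPM, with *Csf3r* at 712 CPM. The part of neutrophils in the level of *Csf3r* was not tested. CL and IL libraries were fully separated by the sum of the microglia genes and, in Ctrl, not by *Csf1r*. The mean of *Csf1r* was 8791 ± 1981 CPM in Ctrl CL and 6160 ± 1803 CPM in Ctrl IL (SD, n = 4), while *P2ry12* was at 4372 ± 706 and 1597 ± 181 CPM. The median log2 fold change of the 14 microglia genes in Ctrl was -0.85, with 8 called lower and 1 above 0. The difference between these changes and that of *Csf1r* was not tested. The 10 genes of the response to tissue dissociation, such as *Fos* and *Jun*, summed to 27227 to 38191 CPM (CL) and 21021 to 24535 CPM (IL) in Ctrl and to 33910 to 46583 CPM (CL) and 22557 to 26344 CPM (IL) in cKO, so they too moved with the hemisphere, and their part in the results was not tested.

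**Figure D4:**
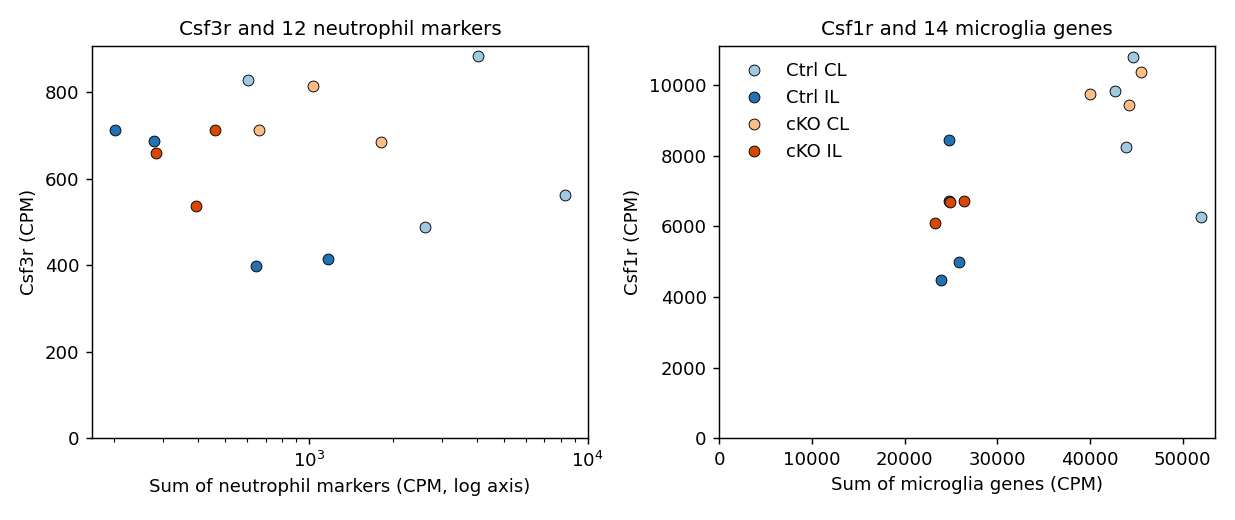
Left, *Csf3r* (y axis, CPM) against the sum of 12 neutrophil markers (x axis, CPM, log axis). Right, *Csf1r* (y axis, CPM) against the sum of 14 microglia genes (x axis, CPM), where each point is 1 of the 14 libraries, coloured by group. The library with a neutrophil sum of 8303 CPM had less *Csf3r* than that with 606 CPM, and the IL libraries lie between 23252 and 26433 CPM of microglia genes.

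Over the 14 libraries, the receptor chains of the GM-CSF and interleukin-3 family varied together, with a Pearson r on the log2 scale of 0.92 between *Csf2rb* and *Csf2rb2*, 0.90 between *Csf2ra* and *Csf2rb2* and 0.88 between *Csf2ra* and *Csf2rb*. For *Csf1r* and *Csf3r* it was 0.76, and for *Csf1r* and *Csf1* it was -0.20. These values describe 14 libraries that share mice and fall into CL and IL, and for *Csf2rb* and *Csf2rb2* also reads that match both genes. Among 11173 genes with a group mean of at least 5 CPM, those most like *Csf1r* by Pearson r were *Hps4* (0.965), *Mfng* (0.956) and *Pik3cg* (0.950), and those most like *Csf1* were *Npnt* (0.967), *Ipo4* (0.947) and *Cd274* (0.940). Among the 3 nearest to *Csf2ra* were *Dgkz* (0.965) and *Selenon* (0.962), the nearest to *Csf2rb* were *Zmynd15* (0.981), *Arhgap24* (0.970) and *Lamc1* (0.963), and to *Csf2rb2* they were *Uhrf1bp1l* (0.976), *Trim25* (0.97) and *Plxnd1* (0.970). *Csf3r* had no gene as near, with *Ccar2* (0.874), *Rrp1b* (0.872) and *Angel1* (0.870) at the top.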

How the data were processed

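CD11b+ cells were sequenced with a Smart Seq v4 kit, and per the labels and the study's methods the authors aligned reads to mm10 with STAR and tested genes with GSA in Partek Flow 8.0. The deposited values are CPM. They are not whole reads throughout: 79.0% to 83.5% of low values (under 100 reads) were within 0.03 of a whole number of reads, so no count test was run. Counting rules and the strand setting are not given in the sources used here. The authors' tables of fold changes, p-values and group means were not used. Gene symbols were matched for 33802 of 33939 IDs. The members and gene lists were chosen with earlier results of these data known.

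CPM were rescaled by trimmed mean of M values (30% of M and 5% of A values trimmed, factors 0.845 to 1.16 over the fits) and transformed as log2(CPM + 1), so the fold change of low genes is understated. Genes worth at least 10 reads at the median depth in as many libraries as the smaller group, and 15 reads in all, were kept. Each comparison was fitted on its own libraries with limma 3.58.1 (R 4.3.3, trend) and adjusted by Benjamini-Hochberg. The interaction used all 14 libraries. The script was tested on simulated data. Samples of the 2 hemispheres of a mouse carry its number in the labels. Their deviations from the group means correlated at 0.182 to 0.608 in 6 pairs, against -0.536 to 0.503 (median -0.215) in 19 other pairs. The ranges overlap, and the pairing comes from the labels, which give both samples the number of 1 mouse. Mice were the replicates. Named genes were the 7 members, 6 partners, up to 4 called genes of each pathway list by size of change, and the 3 genes most like each member at 5 CPM or more. The inferred depths of 12.2 to 41.6 M reads (M, 1000000) per library limit the low values, such as those of *Il34*, *Csf2*, *Csf3*, *Il5* and *Il5ra*. Exact permutation tests used scipy 1.17.1, and sequences were aligned with biopython 1.88. The level of the targeted gene and 1 gene most like *Csf2ra* are not reported here.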

Additional observations from a re-analysis of the deposited data

How the results depend on the processing

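Across scalings, pseudocounts, filters, left-out libraries and fits with the mouse, *Csf2ra* was called in IL against CL in all 19 alternatives in Ctrl and all 16 in cKO. *Csf2rb* was called in 12 of 19 in Ctrl, and *Csf1* and *Csf2rb2* in 18 of 19. The count of members called in Ctrl went from 4 to 1 without both hemispheres of mice 3541 and 3546. Between genotypes it went from 0 to 1 (*Csf1*) in IL without the IL library of cKO mouse 3592, and from 0 to 1 (*Csf1*) in CL without the CL library of that mouse. With the mouse as a replicate block, 4 members were called in Ctrl and 4 in cKO, where *Csf1* (1.05) was added. In cKO the change between hemispheres in this fit rests on mice 791 and 3592 alone. The block changed no other member's call. Over all genes the calls went from 1078 to 3358 in Ctrl and from 3746 to 2310 in cKO. With the mouse as a random effect over all 14 libraries the members called in the 2 comparisons were also 4 and 4, and between genotypes 0 in both hemispheres. Over all genes that fit called 4258 against 1078 in Ctrl and 3094 against 3746 in cKO. Between genotypes it called 190 against 111 in IL and 290 against 145 in CL, and in the interaction 3 against 0. The log2 fold change of *Csf1* in cKO ranged from 0.25 (CL of mouse 3592 left out) to 1.32 (CL of mouse 791 left out) over its alternatives.

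The sum of *Csf2rb* and *Csf2rb2* differed by 66.2 to 103 CPM between IL and CL in Ctrl when a library was left out, each time with an exact permutation p of 0.0571, the smallest that 3 against 4 can give. When libraries were left out in turn, the sum between genotypes in IL ranged from -1.71 CPM (IL of Ctrl mouse 3541 left out) to 35.2 CPM, and the share in CL from -2.39 to 1.08 percentage points (CL of Ctrl mouse 3551 left out), where the named library turned each sign and no call was made. The signs of other values that were never called turned in the same way. *Csf3r* in IL against CL in cKO ranged from -0.26 to 0.0453 (3592 left out) and *Csf2rb2* between genotypes in IL from -0.11 to 0.0764 (3546 left out) on the log2 scale. In the interaction the range was -0.19 to 0.0568 for *Csf1r*, -0.92 to 0.15 for *Csf1*, -0.21 to 0.11 for *Csf2rb* and -0.0663 to 0.29 for *Csf3r*. The cause of these changes was not tested. With at least 10 reads asked of every library, *Il34* was not tested. With 3 and 4 libraries a group, intervals between genotypes are wide, and a missed threshold does not show equal levels.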
